A study of Mus musculus with 12 samples.

Results

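Transcripts of 41 mouse genes of mitosis and the spindle checkpoint were followed in 12 bulk RNA-seq libraries of whole kidney. The genes were taken as a fixed list of symbols with known roles in cell division, and their rows were found among the 40213 gene symbols of the count files. All 41 were listed and all 41 passed the low-count filter that kept 17841 genes for testing. The libraries form 3 groups of 4 from C57BL/6 mice. The CKD+COL group was labelled as given colchicine at 0.3 mg/kg/day by intraperitoneal injection, with an adenine diet whose labelled content was 2, 3, 4 and 5% in replicates 1, 2, 3 and 4. The CKD group was given saline by the same route with a diet of 2% adenine, a model of chronic kidney disease in which crystals injure the tubules. The control group was given saline and a normal diet. Every library is labelled batch 1, and the design text describes a single adenine model for both diseased groups. The sources used here do not give ages, sexes or the length of treatment. The titles of the CKD+COL libraries call the replicates biological, and those of the other libraries give only a replicate number. The mice are not numbered, so any technical part of the spread behind the p-values is not known.

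Dividing cells make most of these transcripts in late S phase and in G2, when the forkhead factor Foxm1 and B-Myb with its MuvB complex switch on a shared set of genes, and the transcripts are scarce in resting cells such as most tubule cells of a healthy kidney. In mitosis the spindle checkpoint (the Bub and Mad proteins and the kinase Ttk) watches kinetochores that lack microtubules and holds back Cdc20, the activator of the anaphase-promoting complex, so that securin and cyclin B are not destroyed. Colchicine binds tubulin and stops microtubules from growing, which in cultured cells holds mitosis at this point. The checkpoint acts on proteins, and the libraries measure transcripts of the whole tissue. The comparisons therefore ask whether the diseased kidney carries more mitotic transcript, and whether colchicine adds to it.

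Library totals ranged from 22200909 to 38253100 counts. The members took 13737 to 23848 counts in the CKD+COL libraries, 10298 to 12724 in the CKD libraries and 2595 to 3786 in the control libraries. No member had 0 counts in any library, and the lowest count in any CKD+COL or CKD library was 24. In the control libraries 33 members had 10 or more counts in every library. The 13 protein-coding transcripts of the mitochondrial genome took 14.27 to 21.3% of the counts in CKD+COL, 16.46 to 17.02% in CKD and 40.78 to 45.94% in control. Kidney identity was checked by Umod, Aqp2, Slc12a3, Slc12a1 and Slc34a1, which were present in every group. One library stands apart for the members: CKD+COL replicate 1, the one of its group labelled 2% adenine, was the highest of the 4 CKD+COL libraries in 38 of the 41 members. Counts of called members, and the values of members called in CKD+COL against CKD, are given with and without it. Other results that include it are given without it only in part.

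In the diseased kidney nearly all mitosis genes were higher. In CKD against control, 36 of the 41 members rose, where 34.1% of all genes tested were called higher, and 2 fell, where 33.4% were called lower. The call is an adjusted p below 0.05 in edgeR's quasi-likelihood test with Benjamini-Hochberg adjustment over the 17841 genes. The 36 rose by 0.89 to 2.75 on the log2 scale, and 33 of them rose 2-fold or more, which 18.7% of all genes did. The median log2 fold change was 1.93 over the 41 members and 0.04 over all genes tested. For all 38 called members the CKD and control libraries did not overlap, a state that 33.2% of all genes showed upward and 33% downward. In bulk tissue, more cells of a type and more RNA in each cell cannot be told apart.

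**Figure D1:**
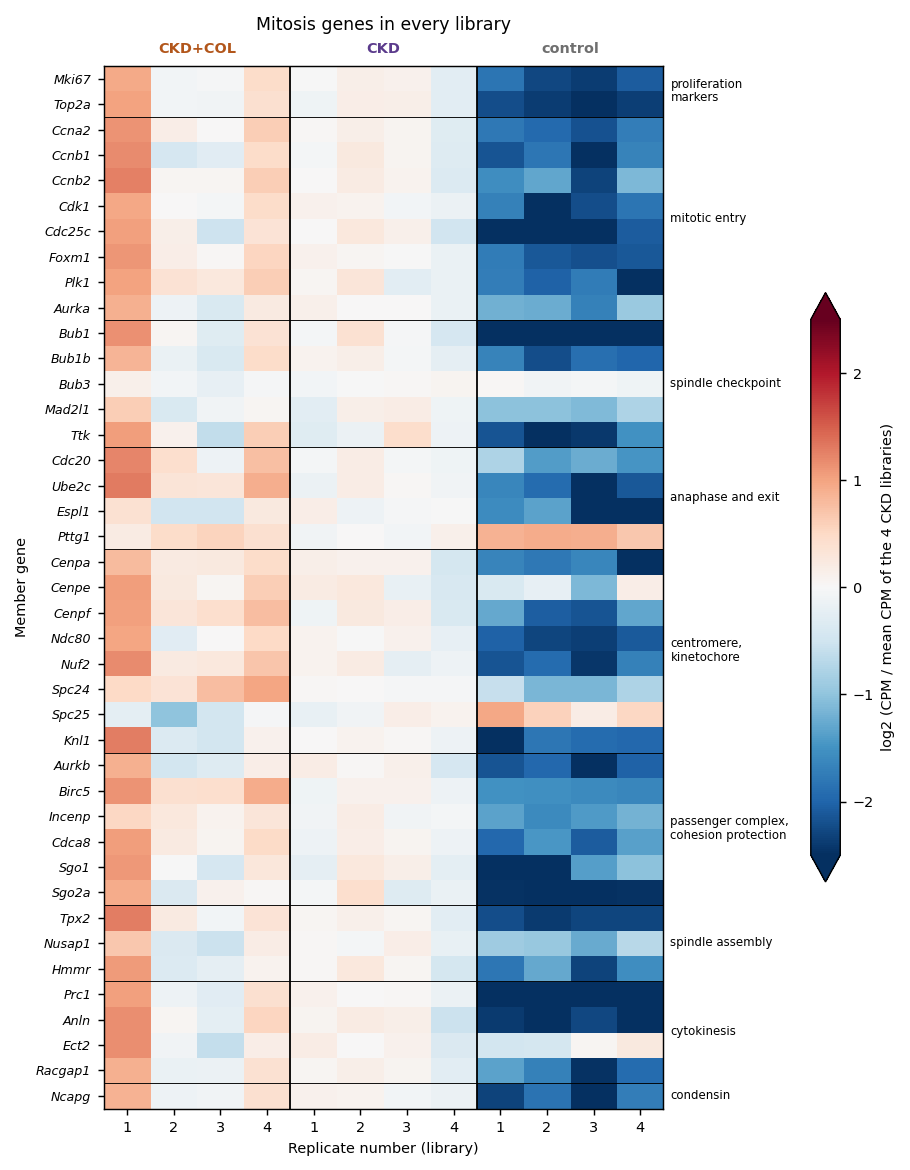
Each row is a member gene and each column a library, with the CKD+COL libraries at the left, CKD in the middle and control at the right; colour gives the log2 ratio of the TMM-scaled CPM to the mean of the 4 CKD libraries, cut at 2.5 in either direction. Most rows are blue in all 4 control libraries, Pttg1 and Spc25 are red there, and the column of CKD+COL replicate 1 is redder than the other 3 of its group in 38 of 41 rows.

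Both general proliferation markers rose. Values are in TMM-scaled CPM and listed from replicate 1 to 4. This unit is counts per 1000000 of an effective library size, the total of the kept genes times the library's TMM factor. The factors were 1.21 to 1.32 in CKD+COL, 1.23 to 1.27 in CKD and 0.586 to 0.646 in control. Mki67, which coats mitotic chromosomes and is the usual marker of cycling cells, had 73.4, 36.2, 37.2 and 52.2 CPM in CKD+COL, 37.5, 41.6, 40.9 and 31.4 CPM in CKD and 10.6, 7.84, 7.33 and 8.99 CPM in control. Top2a, the topoisomerase that untangles sister chromosomes, had 36.0, 17.1, 16.9 and 23.6 CPM in CKD+COL, 16.6, 20.1, 19.9 and 15.0 CPM in CKD and 3.85, 3.46, 3.01 and 3.48 CPM in control. In both genes every CKD library was above every control library, and CKD+COL replicates 2 and 3 lay among the CKD libraries while replicates 1 and 4 lay above them. Mki67 rose in CKD against control by 2.12 ± 0.22 SE (edgeR adjusted p = 1.33e-06) and Top2a by 2.37 ± 0.24 SE (edgeR adjusted p = 6.11e-07). Neither passed the test in CKD+COL against CKD, with 0.39 ± 0.20 SE (edgeR adjusted p = 0.184) for Mki67 and 0.39 ± 0.20 SE (edgeR adjusted p = 0.193) for Top2a. These log2 values were 0.14 for Mki67 and 0.10 for Top2a without CKD+COL replicate 1.

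The 8 genes of mitotic entry all rose in CKD. Cyclins A2, B1 and B2 (Ccna2, Ccnb1, Ccnb2) activate the kinase Cdk1, the phosphatase Cdc25c removes its inhibitory phosphates, Plk1 and Aurka are kinases of entry and of the centrosomes, and Foxm1 is a transcription factor of the whole programme. Ccna2 had 26.9, 13.9, 12.6 and 18.9 CPM in CKD+COL, 12.7, 13.8, 13.0 and 10.1 CPM in CKD and 3.61, 3.21, 2.74 and 3.77 CPM in control. Ccnb1 had 14.1, 4.69, 5.12 and 8.56 CPM in CKD+COL, 6.05, 7.37, 6.58 and 4.99 CPM in CKD and 1.40, 1.78, 1.03 and 1.97 CPM in control. The CKD and control libraries were fully separated in both cyclins, and in Ccnb1 CKD+COL replicate 2 was below all 4 CKD libraries and replicate 3 below 3 of them, while replicates 1 and 4 were above all 4. Cdk1 had 18.9, 9.68, 9.31 and 13.2 CPM in CKD+COL, 10.4, 10.2, 9.20 and 8.64 CPM in CKD and 2.97, 1.43, 2.05 and 2.73 CPM in control. Foxm1 had 15.7, 8.17, 7.45 and 10.5 CPM in CKD+COL, 7.88, 7.55, 7.20 and 6.46 CPM in CKD and 2.16, 1.68, 1.57 and 1.68 CPM in control. Plk1 had 12.5, 7.98, 7.41 and 9.43 CPM in CKD+COL, 6.44, 7.66, 5.15 and 5.49 CPM in CKD and 1.86, 1.53, 1.85 and 1.10 CPM in control. For these 3 genes again no CKD library overlapped the control libraries, and CKD+COL replicate 1 was the highest of all 12.

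In CKD against control the entry genes rose by 1.23 (Aurka) to 2.58 (Cdc25c) on the log2 scale, with 2.00 ± 0.35 SE (edgeR adjusted p = 0.000153) for Ccnb1 and 2.03 ± 0.23 SE (edgeR adjusted p = 1.41e-06) for Foxm1. In CKD+COL against CKD, Plk1 was the one of the 8 that was called, higher by 0.59 ± 0.18 SE (edgeR adjusted p = 0.0428). Its libraries overlapped, since CKD replicate 2 lay above CKD+COL replicate 3. The Plk1 call was lost when any one of CKD replicates 1, 3 or 4, CKD+COL replicates 1, 2 or 4, or control replicates 2 or 3 was left out; without CKD+COL replicate 1 the log2 value was 0.42 (edgeR adjusted p = 0.0533), and over all 12 such fits the adjusted p lay between 0.0387 and 0.135. The other 7 entry genes did not pass, with log2 values from 0.23 (Aurka) to 0.57 (Ccnb2) and 0.37 ± 0.29 SE (edgeR adjusted p = 0.391) for Ccnb1, which was -0.04 without CKD+COL replicate 1.

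**Figure D2:**
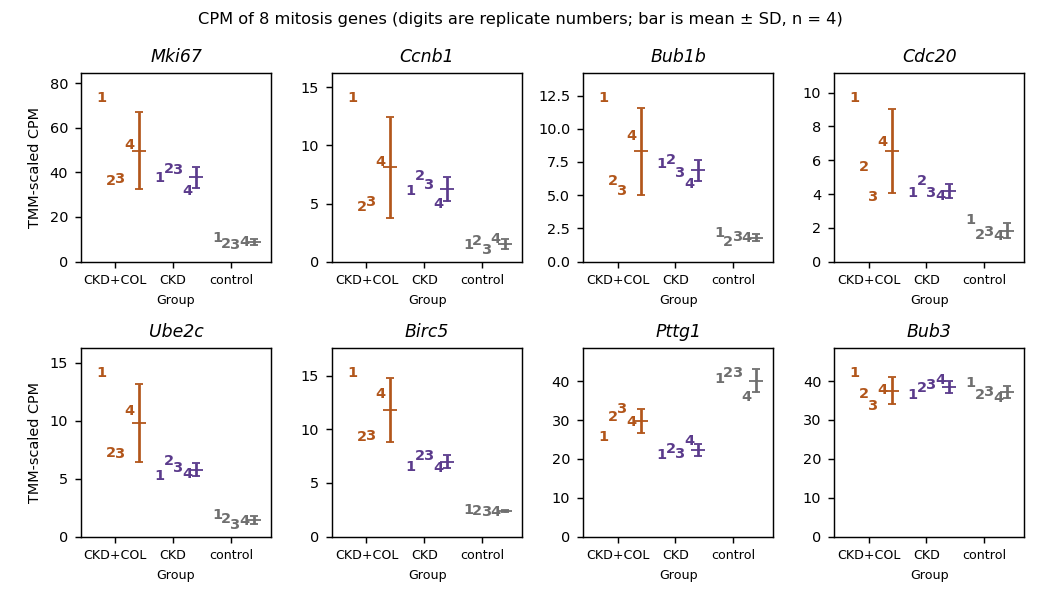
Each panel gives the TMM-scaled CPM of 1 gene in every library, with the digit of the replicate number as the point and the bar giving mean ± SD (n = 4 libraries) for CKD+COL, CKD and control from left to right. Digits 1 and 4 of CKD+COL stand above the CKD digits in Mki67, Ccnb1, Bub1b, Cdc20, Ube2c and Birc5, while Pttg1 is highest in control and Bub3 is level across the groups.

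Among the 5 spindle checkpoint genes, 4 rose in CKD and none was called under colchicine. Bub1, a kinase that recruits the other checkpoint proteins to kinetochores, had 5.46, 2.57, 2.01 and 3.17 CPM in CKD+COL, 2.39, 3.24, 2.44 and 1.84 CPM in CKD and 0.408, 0.356, 0.274 and 0.406 CPM in control. Bub1b (BubR1), which binds and blocks Cdc20, had 12.3, 6.08, 5.30 and 9.46 CPM in CKD+COL, 7.32, 7.62, 6.67 and 5.84 CPM in CKD and 2.16, 1.48, 1.85 and 1.74 CPM in control. In both genes the CKD libraries lay wholly above control, and CKD+COL replicates 2 and 3 lay within or below the CKD values. Mad2l1 (Mad2), the other blocker of Cdc20, had 17.7, 8.83, 10.8 and 12.0 CPM in CKD+COL, 9.64, 12.8, 13.1 and 10.7 CPM in CKD and 5.65, 5.70, 5.34 and 6.78 CPM in control. Ttk (Mps1), the kinase that starts the signal, had 3.72, 1.95, 1.19 and 2.78 CPM in CKD+COL, 1.48, 1.64, 2.47 and 1.67 CPM in CKD and 0.408, 0.306, 0.342 and 0.638 CPM in control. Mad2l1 was lowest among CKD+COL libraries in replicate 2 and Ttk in replicate 3, each below every CKD library. Bub3, a partner of Bub1 and BubR1 that also acts outside mitosis, had 42.2, 36.8, 33.6 and 37.6 CPM in CKD+COL, 36.5, 38.1, 39.1 and 40.3 CPM in CKD and 39.4, 36.4, 37.2 and 35.6 CPM in control, and its 3 groups overlapped.

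Bub1 rose in CKD against control by 2.75 ± 0.37 SE (edgeR adjusted p = 7.54e-06), the largest log2 change of the 41, Ttk by 2.09 ± 0.39 SE (edgeR adjusted p = 0.000231), Bub1b by 1.93 ± 0.26 SE (edgeR adjusted p = 9.13e-06) and Mad2l1 by 0.97 ± 0.19 SE (edgeR adjusted p = 0.000333). The control libraries held only 4 to 7 counts of Bub1, so the size of its change rests on few counts. Bub3 did not pass, with 0.05 ± 0.08 SE (edgeR adjusted p = 0.576). Colchicine-treated kidneys compared with CKD gave edgeR values of 0.41 ± 0.28 SE (edgeR adjusted p = 0.311) for Bub1 and 0.27 ± 0.22 SE (edgeR adjusted p = 0.408) for Bub1b. They were 0.40 ± 0.31 SE (edgeR adjusted p = 0.388) for Ttk, 0.09 ± 0.18 SE (edgeR adjusted p = 0.737) for Mad2l1 and -0.04 ± 0.07 SE (edgeR adjusted p = 0.748) for Bub3. None of the 5 had an unadjusted p below 0.05 in edgeR, and none was called by DESeq2 or limma-voom. Without CKD+COL replicate 1 the log2 values were 0.05 for Bub1, 0.00 for Bub1b, 0.10 for Ttk, -0.14 for Mad2l1 and -0.10 for Bub3.

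Of the 4 genes of anaphase onset and exit, 3 rose and Pttg1 fell in CKD, and Ube2c and Pttg1 were called higher under colchicine. Cdc20, the activator on which the checkpoint acts, had 9.70, 5.60, 3.83 and 7.06 CPM in CKD+COL, 4.04, 4.77, 4.05 and 3.85 CPM in CKD and 2.45, 1.58, 1.78 and 1.51 CPM in control. Ube2c, the ubiquitin-conjugating enzyme of the anaphase-promoting complex, had 14.1, 7.21, 7.13 and 10.8 CPM in CKD+COL, 5.21, 6.52, 5.89 and 5.43 CPM in CKD and 1.86, 1.53, 1.03 and 1.33 CPM in control. For Ube2c all 4 CKD+COL libraries were above all 4 CKD libraries, whereas for Cdc20 replicate 3 was below them. Pttg1, the securin that restrains separase, had 25.7, 30.8, 33.0 and 29.4 CPM in CKD+COL, 21.1, 22.5, 21.2 and 24.5 CPM in CKD and 40.6, 42.2, 42.0 and 35.9 CPM in control. Espl1, the separase that cuts cohesin, had 3.86, 2.12, 2.12 and 3.51 CPM in CKD+COL, 3.31, 2.71, 2.89 and 2.92 CPM in CKD and 0.991, 1.17, 0.411 and 0.406 CPM in control. The 3 groups of Pttg1 did not overlap and ran in the order control, CKD+COL and CKD from high to low, and CKD+COL replicate 1 was the lowest of its group in this gene.

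In CKD against control, Ube2c rose by 1.99 ± 0.25 SE (edgeR adjusted p = 4.09e-06), Espl1 by 1.95 ± 0.33 SE (edgeR adjusted p = 7.67e-05) and Cdc20 by 1.19 ± 0.26 SE (edgeR adjusted p = 0.00094). Pttg1 fell, by 0.85 ± 0.09 SE on the log2 scale (edgeR adjusted p = 5.82e-07), but scaled by library totals alone its log2 value was 0.17, since that scaling sets the median of all genes at 1.05. Ube2c was higher in CKD+COL against CKD by 0.77 ± 0.21 SE (edgeR adjusted p = 0.0248) and Pttg1 by 0.41 ± 0.09 SE (edgeR adjusted p = 0.00929). Both were also called without CKD+COL replicate 1, with log2 values of 0.53 for Ube2c (edgeR adjusted p = 0.0218) and 0.47 for Pttg1 (edgeR adjusted p = 0.000341). The Ube2c call was lost without CKD replicate 1, 3 or 4 or without CKD+COL replicate 4, and its adjusted p lay between 0.0184 and 0.0718 over the 12 fits that leave out 1 library. Pttg1 was called in all 12 of those fits, with adjusted p from 0.000341 to 0.0411, but not with the labelled adenine content as a slope, where its edgeR adjusted p was 0.153. Cdc20 did not pass, with 0.64 ± 0.23 SE (edgeR adjusted p = 0.0727), and neither did Espl1, with -0.03 ± 0.28 SE (edgeR adjusted p = 0.942).

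Of the 8 centromere and kinetochore genes, 6 rose in CKD, Spc25 fell and Cenpe did not pass. Cenpa is the histone that marks the centromere, Cenpe a kinetochore motor, Cenpf a large protein of the outer kinetochore, Knl1 the platform on which Bub1 docks, and Ndc80, Nuf2, Spc24 and Spc25 form the complex that grips microtubules. Ndc80 had 10.3, 4.31, 5.24 and 7.37 CPM in CKD+COL, 5.56, 5.17, 5.66 and 4.53 CPM in CKD and 1.28, 1.07, 1.03 and 1.22 CPM in control. Nuf2 had 11.9, 6.10, 6.20 and 8.38 CPM in CKD+COL, 5.56, 6.02, 4.43 and 4.79 CPM in CKD and 1.17, 1.38, 0.959 and 1.62 CPM in control. Both partners were separated between CKD and control without overlap, and in Nuf2 every CKD+COL library was also above every CKD library. Spc24 had 4.92, 4.43, 5.90 and 6.92 CPM in CKD+COL, 3.55, 3.53, 3.42 and 3.42 CPM in CKD and 2.33, 1.58, 1.57 and 2.03 CPM in control. Cenpf had 13.0, 7.89, 8.56 and 10.8 CPM in CKD+COL, 5.91, 7.59, 7.14 and 4.91 CPM in CKD and 2.62, 1.53, 1.44 and 2.61 CPM in control. The CKD+COL and CKD libraries of Spc24 and Cenpf did not overlap, and in Spc24 the highest CKD+COL library was replicate 4. Spc25 ran the other way, with 18.2, 10.6, 15.7 and 21.1 CPM in CKD+COL, 18.9, 20.1, 24.1 and 22.8 CPM in CKD and 41.8, 31.8, 24.5 and 30.7 CPM in control, and all 4 control libraries were above all 4 CKD libraries.

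In CKD against control, Ndc80 rose by 2.18 ± 0.26 SE (edgeR adjusted p = 2.69e-06), Nuf2 by 2.00 ± 0.25 SE (edgeR adjusted p = 3.3e-06), Cenpf by 1.63 ± 0.23 SE (edgeR adjusted p = 1.75e-05) and Spc24 by 0.89 ± 0.18 SE (edgeR adjusted p = 0.000556). Knl1 and Cenpa rose by 2.10 and 1.86 on the log2 scale, and Cenpe, with 0.30 ± 0.26 SE, did not pass. Spc25 fell, by 0.59 ± 0.19 SE on the log2 scale (edgeR adjusted p = 0.0131), but its log2 value was 0.43 when scaled by library totals alone. Without control replicate 1, its highest library, the fall of 0.44 in Spc25 was not called (edgeR adjusted p = 0.0537; over all alternatives the adjusted p lay between 0.00253 and 0.484). Of the 4 partners of the Ndc80 complex, Spc25 was thus lower in CKD and the other 3 were higher.

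Spc24 was higher in CKD+COL against CKD by 0.67 ± 0.17 SE (edgeR adjusted p = 0.0176), Cenpf by 0.66 ± 0.20 SE (edgeR adjusted p = 0.0419) and Nuf2 by 0.64 ± 0.20 SE (edgeR adjusted p = 0.047). Without CKD+COL replicate 1, Spc24 had a log2 value of 0.72 (edgeR adjusted p = 0.00414), Cenpf 0.50 (edgeR adjusted p = 0.0468) and Nuf2 0.40 (edgeR adjusted p = 0.0675), so that Nuf2 was no longer called. Over the 12 fits that leave out 1 library, the edgeR adjusted p lay between 0.00414 and 0.0582 for Spc24, 0.0435 and 0.110 for Cenpf, and 0.0393 and 0.139 for Nuf2. The Spc24 call was lost without CKD replicate 3 or CKD+COL replicate 4. The Cenpf call was lost without any single CKD library or without CKD+COL replicate 3 or 4, and the Nuf2 call without any single CKD or control library or CKD+COL replicate 1 or 4. Cenpa did not overlap between CKD+COL and CKD but missed the threshold, with 0.45 ± 0.18 SE (edgeR adjusted p = 0.106). Cenpe, Ndc80, Knl1 and Spc25 did not pass, with log2 values of 0.54, 0.38, 0.33 and -0.39.

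The 6 genes of the chromosomal passenger complex and of cohesion protection all rose in CKD. Aurkb is the kinase of the complex that corrects faulty attachments, and Birc5 (survivin), Cdca8 (borealin) and Incenp place it on the chromosomes. Birc5 had 15.3, 9.25, 9.35 and 13.3 CPM in CKD+COL, 6.51, 7.48, 7.53 and 6.37 CPM in CKD and 2.45, 2.39, 2.33 and 2.26 CPM in control. Aurkb had 9.13, 3.60, 3.97 and 5.57 CPM in CKD+COL, 5.63, 5.09, 5.42 and 3.71 CPM in CKD and 1.11, 1.27, 0.753 and 1.22 CPM in control. The 3 groups of Birc5 did not overlap, while in Aurkb CKD+COL replicate 2 was below all 4 CKD libraries and replicate 3 below 3 of them. Birc5 rose in CKD against control by 1.56 ± 0.18 SE (edgeR adjusted p = 1.35e-06) and Aurkb by 2.17 ± 0.31 SE (edgeR adjusted p = 1.6e-05). Cdca8 and Incenp rose by 1.67 and 1.38 on the log2 scale. Sgo1 and Sgo2a, the shugoshins that protect cohesin at centromeres, rose by 1.81 and 2.60; Sgo2a has a close relative, Sgo2b, and the sources used here do not say how reads were divided between them.

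Birc5 was higher in CKD+COL against CKD by 0.75 ± 0.15 SE (edgeR adjusted p = 0.00709), the smallest adjusted p of the 41. It was 0.60 without CKD+COL replicate 1 (edgeR adjusted p = 0.00273), and Birc5 was called in all 12 fits that leave out 1 library, with adjusted p up to 0.0264. Aurkb, its partner kinase, did not pass, with 0.16 ± 0.26 SE (edgeR adjusted p = 0.679), and its log2 value was -0.19 without CKD+COL replicate 1. Incenp, Cdca8, Sgo1 and Sgo2a had log2 values of 0.30, 0.50, 0.34 and 0.27 and did not pass.

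The 8 members that build and split the spindle or pack chromosomes were higher in CKD except for Ect2. Tpx2, which nucleates spindle microtubules, rose by 2.30 on the log2 scale in CKD against control, and Nusap1 and Hmmr, which bundle or crosslink them, by 0.92 and 1.66. Prc1, the bundler of the midzone, rose by 2.63, Anln (anillin of the contractile ring) by 2.56 and Racgap1 of the centralspindlin complex by 1.78. Ect2, the exchange factor that switches on RhoA at the midzone, did not pass, with 0.12 ± 0.32 SE (edgeR adjusted p = 0.757) and 10.3, 4.36, 3.06 and 5.22 CPM in CKD+COL, 5.28, 4.67, 4.97 and 3.59 CPM in CKD and 3.38, 3.41, 4.79 and 5.45 CPM in control. CKD+COL replicate 1 was far above the other 11 libraries in Ect2, which otherwise overlapped. The condensin subunit Ncapg rose by 2.13. None of these 8 was called in CKD+COL against CKD, where their log2 values ran from 0.07 (Nusap1) to 0.54 (Tpx2), and by DESeq2 and limma-voom none was called either; Tpx2 alone had an unadjusted p below 0.05.

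**Figure D3:**
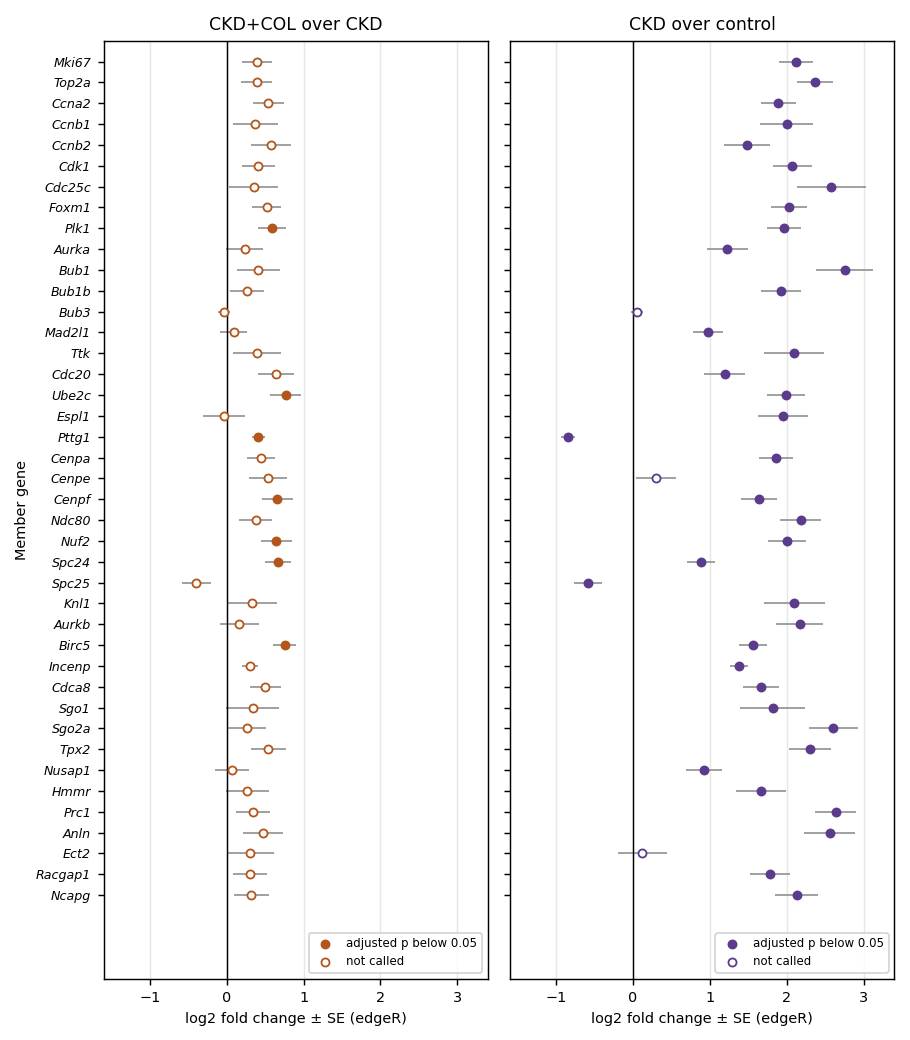
Points are edgeR log2 fold changes of the 41 members with SE bars, for CKD+COL over CKD at the left and CKD over control at the right; filled points passed an adjusted p of 0.05. In the left panel 38 of 41 points lie above 0 and 7 are filled, and in the right panel 36 filled points lie above 0 and 2, Pttg1 and Spc25, below it.

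Under colchicine the differences were small. In CKD+COL against CKD, 7 of the 41 members were called higher, which is 17.1% where 6.79% of all genes were called higher, and 0 were called lower, where 8.24% of all genes were. DESeq2 and limma-voom also called 7 higher and 0 lower. Over all 17841 genes DESeq2 called 1487 higher and 2266 lower, and limma-voom 1430 and 1938. An unadjusted edgeR p below 0.05 was reached by 16 members, all of them higher, against 33% of all genes in either direction. The 7 called were Plk1, Ube2c, Pttg1, Cenpf, Nuf2, Spc24 and Birc5. The CKD+COL libraries lay wholly above the CKD libraries in 7 members, which 8.92% of all genes did: Cenpa and the called genes other than Plk1. No member lay wholly below CKD, as 9.29% of all genes did, and none was called at 2-fold or more, as 0.779% of all genes were. The log2 value was above 0 in 38 members (92.7%, against 53.7% of all genes), with a median of 0.39 against 0.03 over all genes. Without CKD+COL replicate 1 it was above 0 in 28 members, and the median was 0.10 against 0.03 over all genes. In that fit 5 members were called higher (Ube2c, Pttg1, Cenpf, Spc24 and Birc5), which is 12.2%, where 15.9% of all genes were called higher. In the same fit 0 members were called lower, where 19.4% of all genes were. The members' share of higher calls was thus above that of all genes with the library and below it without. With the labelled adenine content as a slope read at 2%, 5 members were called higher, where 2.2% of all genes were: Foxm1, Ube2c, Nuf2, Birc5 and Tpx2, but not Pttg1 (edgeR adjusted p = 0.153), Plk1, Cenpf or Spc24. The slope was fitted within CKD+COL, where 2% is the label of replicate 1 alone, so this reading leans on that library. The members' median log2 value was 0.66 in it. Without CKD replicate 3, or without CKD+COL replicate 4, only Pttg1 and Birc5 were called, and without CKD replicate 1 or 4 they were joined by Spc24.

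Within the CKD+COL group the libraries were spread widely. CKD+COL replicate 1 was above all 4 CKD libraries in 40 of the 41 members (97.6%, against 30.3% of all genes), and replicate 4 in 33 (80.5%, against 33.9%). Replicate 2 was above all 4 in 14 members (34.1%, against 36% of all genes) and replicate 3 in 7 (17.1%, against 37.9%). Below all 4 they stood in 9 and 13 members, and in 6244 and 6317 of all 17841 genes. Relative to the CKD mean, the median member stood at a log2 of 1.02, 0.01, -0.08 and 0.41 in CKD+COL replicates 1, 2, 3 and 4, whereas the median of all genes stood between 0.00 and 0.03. The CKD libraries themselves stood at 0.04, 0.19, 0.09 and -0.22. Replicate 1 had 1.78 times the mean of the other 3 CKD+COL libraries in the median member, and over 1.5 times in 32 members. The lowest ratio was 0.827, and the highest was 2.81. Replicate 1 came first and replicate 4 second of the CKD+COL libraries in every role, with the spindle checkpoint genes at 0.85, -0.07, -0.26 and 0.37 and the mitotic entry genes at 1.06, 0.10, -0.01 and 0.50. The labelled adenine content of replicates 1 to 4 was 2, 3, 4 and 5%, so the 2 libraries with the most mitotic transcript carried the lowest and the highest label. Each label is carried by 1 library of this group, so the labelled diet and the library cannot be told apart.

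Markers of other cell types did not all move with the members. Over all genes, 34.1% were called higher and 33.4% lower in CKD against control, and 6.79% and 8.24% in CKD+COL against CKD. The summed CPM of 10 macrophage genes was 1495, 1870, 1264 and 1295 in CKD+COL, 1871 to 1927 in CKD and 106 to 128 in control, with all 10 called higher in CKD against control and 5 of 10 lower in CKD+COL against CKD. The 9 T and NK cell genes tested summed to 32.1, 24.6, 25.9 and 27.0 CPM in CKD+COL, 39.6 to 56.6 in CKD and 6.57 to 7.54 in control, with 8 of 9 higher in CKD and 3 of 9 lower with colchicine. The macrophage and T and NK cell sums of CKD+COL replicate 1 lay below every CKD library, and its fibroblast and endothelial sums lay above every one. Its median injured tubule gene stood at a log2 of 0.32 relative to the CKD mean, although its injured tubule sum lay below every CKD library. The 7 fibroblast genes summed to 4022, 3110, 3106 and 3664 CPM in CKD+COL, 2489 to 2995 in CKD and 333 to 393 in control; all 7 were higher in CKD, and 2 of 7 (Pdgfrb and Col1a1) were higher with colchicine. Replicates 1 and 4 had the highest sums of the 12 libraries, but Col1a1 and Col3a1 make up most of each sum. Relative to the CKD mean the median fibroblast gene stood at a log2 of 0.30, -0.09, -0.10 and -0.12 in CKD+COL replicates 1 to 4, and 7, 2, 3 and 3 of the 7 genes were above it. The 5 endothelial genes summed to 386, 313, 298 and 312 CPM in CKD+COL, 270 to 304 in CKD and 405 to 472 in control, with 4 of 5 lower in CKD. With colchicine edgeR called none of the 5, although 4 had an unadjusted p below 0.05, and DESeq2 called 1 and limma-voom none. The 9 genes of injured tubule all rose in CKD and with colchicine 2 were called higher (Krt8 and Krt18) and 2 lower (Vcam1 and Spp1), and the 8 proximal tubule genes all fell in CKD and 4 were lower with colchicine. The 5 neutrophil genes all rose in CKD, and with colchicine Retnlg was called higher and Csf3r lower. Without CKD+COL replicate 1, 0 neutrophil genes were called higher and 3 lower, where 15.9 and 19.4% of all genes were. In that fit the higher and lower calls were 2 and 2 for fibroblast, 1 and 1 for endothelial and 2 and 3 for injured tubule genes. They were 0 and 5 for each of the macrophage, T and NK cell and proximal tubule lists. The 5 red cell genes tested all fell in CKD, and 1 of the 4 B and plasma cell genes tested rose. With colchicine edgeR called none in either list; 3 red cell genes and 1 B and plasma cell gene had an unadjusted p below 0.05, DESeq2 called 2 and 1 of them lower, and limma-voom 0 and 1. The part of any of these cell types in the members' levels was not tested.

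In CKD+COL against control, 37 members were called higher, where 37.1% of all genes were, and 2 lower, where 33.4% were. This comparison shares its control libraries with the first, so the 2 are not separate evidence. The median log2 fold change was 2.32, against 0.10 over all genes. Cenpe was called here, with 0.84 ± 0.26 SE, and Bub3 and Ect2 were not called. Pttg1 and Spc25 were lower, with log2 values of -0.44 ± 0.09 SE and -0.98 ± 0.19 SE, but 0.60 and 0.06 when scaled by library totals alone, which sets the median of all genes at 1.14. Bub1 had 3.16 ± 0.36 SE (edgeR adjusted p = 1.3e-06), the largest of the 41, over only 4 to 7 counts in the control libraries. Without CKD+COL replicate 1 the median over the members was 1.98 and 37 were called higher.

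A further 45 mitosis genes outside the list were mostly higher in CKD too. In CKD against control 37 of the 45 rose and 3 fell (82.2 and 6.67%, where 34.1 and 33.4% of all genes did). In CKD+COL against CKD 5 were called higher (11.1%, where 6.79% of all genes were), with a median log2 value of 0.40. Without CKD+COL replicate 1, 5 were called higher (11.1%, where 15.9% of all genes were) and 1 lower (2.22%, where 19.4% were), and the median was 0.18. Their median stood at log2 values of 0.88, 0.10, -0.01 and 0.45 relative to the CKD mean in CKD+COL replicates 1 to 4. Iqgap3, a scaffold protein of the IQGAP family, had 10.8, 7.13, 7.33 and 9.01 CPM in CKD+COL, 5.98, 6.20, 5.45 and 4.06 CPM in CKD and 0.758, 0.662, 0.753 and 1.04 CPM in control. It rose by 2.75 on the log2 scale in CKD and was higher by 0.66 with colchicine, without overlap of the groups in either case. The condensin subunit Ncapd2 rose by 0.93 in CKD and was higher by 0.50 with colchicine. The kinesin Kif20b fell by 3.02 in CKD, with 10.8, 5.51, 4.96 and 6.05 CPM in CKD+COL, 5.63, 6.59, 6.13 and 5.61 CPM in CKD and 44.9, 50.5, 56.5 and 42.6 CPM in control. Cit and Cks2 fell as well, so 3 further genes were called lower in CKD, as Pttg1 and Spc25 were. The directions of Pttg1 and Spc25 turned when scaled by library totals alone, which sets the median of all genes at 1.05.

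Of 16 further checkpoint and kinetochore genes, 11 rose in CKD (68.8%, where 34.1% of all genes did). Zwint fell, by 0.33 on the log2 scale, though its value was 0.68 when scaled by library totals alone. With colchicine 2 were called higher (12.5%, where 6.79% of all genes were). Without CKD+COL replicate 1, 2 were called higher and 3 lower (12.5 and 18.8%, near the 15.9 and 19.4% of all genes). Trip13, the ATPase that takes the checkpoint complex apart, rose by 1.82 in CKD against control and Zwilch of the dynein-recruiting RZZ complex by 1.34. Mad1l1 (Mad1), the docking partner of Mad2, had 26.7, 29.9, 25.4 and 26.2 CPM in CKD+COL, 22.0, 20.5, 20.8 and 23.3 CPM in CKD and 19.2, 15.1, 17.9 and 16.8 CPM in control. It was higher by 0.32 ± 0.09 SE (edgeR adjusted p = 0.0242) in CKD+COL against CKD, with no overlap. Pmf1, a subunit of the kinetochore's Mis12 complex, was higher by 0.42. Among 17 genes of the anaphase-promoting complex and its enzymes, 4 rose and 6 fell in CKD (23.5 and 35.3%, where 34.1 and 33.4% of all genes did), among them Anapc13 with -1.55 and Anapc16 with -0.48, although Anapc16 was at 0.53 when scaled by library totals alone. With colchicine 3 were higher (17.6%, where 6.79% of all genes were): Anapc11, Anapc15 (by 0.52) and Ube2s, the enzyme that lengthens the ubiquitin chains started by Ube2c. Ube2s had 36.9, 39.7, 40.8 and 37.0 CPM in CKD+COL, 27.6, 27.6, 25.2 and 28.3 CPM in CKD and 37.7, 37.4, 37.4 and 33.0 CPM in control, and was higher by 0.51 ± 0.07 SE (edgeR adjusted p = 0.00087) with colchicine. All 4 CKD+COL libraries of Ube2s were above all 4 CKD libraries and close together, with replicates 1 and 4 at the low end.

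DNA replication genes were also mostly higher in CKD. Of 38 tested, 28 rose and 3 fell in CKD against control (73.7 and 7.89%, where 34.1 and 33.4% of all genes did). The median log2 was 0.85 where the members had 1.93, a difference that was not tested. With colchicine 2 were higher (5.26%, where 6.79% of all genes were), with a median of 0.17. With CKD+COL replicate 1 left out, 4 were called higher and 4 lower (10.5% each, below the 15.9% and 19.4% of all genes), and the median was 0.08 for the replication genes and 0.10 for the members. Uhrf1, which brings the maintenance methyltransferase to newly copied DNA, rose by 2.78 in CKD. With colchicine, Chaf1b of the histone chaperone CAF-1 was higher by 0.65 and the thymidine kinase Tk1 by 0.44. As a description, the mean log2 CPM of the 41 members minus that of the replication genes was 0.27, -0.28, -0.28 and -0.08 in CKD+COL replicates 1 to 4, -0.29, -0.12, -0.30 and -0.35 in CKD, and -1.16, -1.08, -1.27 and -1.09 in control. Gene length enters each mean, so only differences between libraries are read. The CKD libraries lay above all control libraries, and CKD+COL replicates 1 and 4 lay above all CKD libraries while replicates 2 and 3 lay among them.

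**Figure D4:**
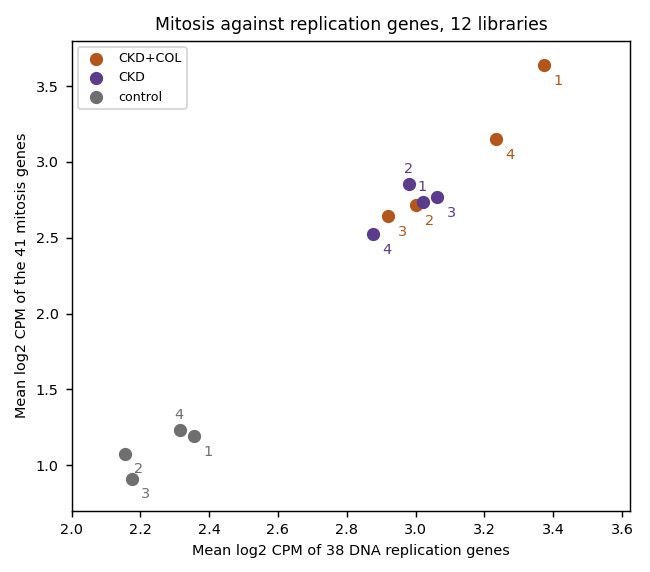
Each point is a library, placed by the mean log2 CPM of 38 DNA replication genes (x axis) and of the 41 mitosis genes (y axis), with the replicate number beside it. Control libraries lie at the lower left, and CKD+COL replicates 2 and 3 lie with the 4 CKD libraries while replicates 4 and 1 lie at the upper right.

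Regulators of entry into the cycle were mixed. Of 16 genes of G1, 8 rose and 4 fell in CKD (50 and 25%, where 34.1 and 33.4% of all genes did). With colchicine 4 were higher (Ccnd2, Cdk4, Cdkn1a and Cdkn1c) and Rbl2 was lower. These are 25 and 6.25%, where 6.79 and 8.24% of all genes were called. Cdkn1a (p21), the inhibitor of cyclin-dependent kinases that p53 switches on, had 95.2, 65.5, 51.4 and 51.5 CPM in CKD+COL, 44.8, 44.0, 46.5 and 45.0 CPM in CKD and 5.01, 6.26, 6.92 and 6.84 CPM in control. The 3 groups did not overlap, and CKD+COL replicate 1 was the highest library here too. Cdkn1a rose by 2.85 ± 0.19 SE (edgeR adjusted p = 6.37e-09) in CKD against control and was higher by 0.55 ± 0.16 SE (edgeR adjusted p = 0.0376) in CKD+COL against CKD. The Cdkn1a difference was 0.31 without CKD+COL replicate 1 (edgeR adjusted p = 0.0144, and 0.0144 to 0.0475 over that fit and the 3 other scalings). Cyclin D2 (Ccnd2) was higher by 0.36 and its partner kinase Cdk4 by 0.27 with colchicine, and Cdk6 rose by 1.01 in CKD. Of 16 genes of the p53 and tetraploidy response, 9 rose and 1 fell in CKD (56.2 and 6.25%, where 34.1 and 33.4% of all genes did). Among these, Phlda3 was at 1.92 and Trp53 at 0.78. With colchicine 4 were higher (Gadd45a, Bbc3, Bax and Phlda3) and 2 lower (Sesn1 and Sesn2), with Phlda3 at 0.51 and Sesn1 at -0.38. These are 25 and 12.5%, where 6.79 and 8.24% of all genes were called. Without CKD+COL replicate 1, 4 were called higher and 6 lower, where 15.9 and 19.4% of all genes were. Of 15 regulators of the MuvB, B-Myb and E2F families, 5 rose and 4 fell in CKD (33.3 and 26.7%, near the 34.1 and 33.4% of all genes), among them Lin52 with -1.02 and Tfdp2 with -0.71, which were -0.01 and 0.30 when scaled by library totals alone. With colchicine 2 were called lower (13.3%, where 8.24% of all genes were). They were Lin52 at -0.38 ± 0.11 SE (edgeR adjusted p = 0.0335) and E2f5 at -0.28 ± 0.08 SE (edgeR adjusted p = 0.0396).

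The promoters of the members were examined because the genes moved together across libraries. RefSeq promoter sequences of the GRCm38.p6 build, from 250 bases before to 50 after the first listed start, were found for 34 of the 41. TTTGAA and TTTAAA, the forms of the cell cycle homology region bound by the MuvB complex, and CCAAT, bound by NF-Y, were searched on both strands. On the other strand TTTGAA reads TTCAAA and CCAAT reads ATTGG, while TTTAAA reads the same. Matches of TTTGAA and TTTAAA cannot overlap each other, and a CCAAT match can share an end base with either. TTTGAA was present in 24 member promoters (70.6%, against 18.1% of 27025 promoters), TTTAAA in 8 (23.5%, against 13.2%) and CCAAT in 26 (76.5%, against 37.9%). A TTTGAA or TTTAAA together with CCAAT was held by 23 (67.6%, against 10.9%). The shares for TTTGAA and CCAAT were 69.4 and 75% among the further mitosis genes and 13.3 and 56.7% among the replication genes. A match is a description of letters and not a site.

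Bub3, Cenpe, Ect2 and Spc25 held at least 1 of these motifs and were not called higher in CKD, and 4 members held none: Nuf2, Nusap1 and Mad2l1, which rose, and Pttg1, which fell. The stretch from 120 bases before to 30 after the start is shown for the 4 holders with the highest mean CPM, which is not adjusted for gene length: Bub3 (chr7:131560250-131560399, plus strand), Mki67 (chr7:135716350-135716499, minus strand), Spc25 (chr2:69206184-69206333, minus strand) and Top2a (chr11:99024160-99024309, minus strand). For contrast it is shown for the 2 members with none that have the highest mean CPM, Pttg1 (chr11:43425952-43426101, minus strand) and Mad2l1 (chr6:66535101-66535250, plus strand). Each is written from 5′ to 3′ on the strand of the gene, in GRCm38.p6 coordinates, with matches in capitals.
Bub3: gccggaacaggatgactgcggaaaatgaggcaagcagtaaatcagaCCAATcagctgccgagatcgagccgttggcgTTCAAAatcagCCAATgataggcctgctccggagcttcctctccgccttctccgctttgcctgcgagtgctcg
Mki67: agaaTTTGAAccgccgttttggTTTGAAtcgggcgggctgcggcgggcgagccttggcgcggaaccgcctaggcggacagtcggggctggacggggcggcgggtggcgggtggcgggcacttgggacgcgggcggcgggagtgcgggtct
Spc25: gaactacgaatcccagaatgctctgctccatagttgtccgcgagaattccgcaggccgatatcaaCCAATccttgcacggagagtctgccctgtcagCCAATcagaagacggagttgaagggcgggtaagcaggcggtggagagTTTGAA
Top2a: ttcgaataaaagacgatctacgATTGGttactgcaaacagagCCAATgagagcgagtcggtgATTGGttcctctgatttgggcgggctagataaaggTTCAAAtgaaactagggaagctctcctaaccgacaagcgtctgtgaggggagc
Pttg1: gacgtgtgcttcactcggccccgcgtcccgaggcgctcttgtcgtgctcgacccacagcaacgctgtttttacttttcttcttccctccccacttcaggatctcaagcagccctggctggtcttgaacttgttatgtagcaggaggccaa
Mad2l1: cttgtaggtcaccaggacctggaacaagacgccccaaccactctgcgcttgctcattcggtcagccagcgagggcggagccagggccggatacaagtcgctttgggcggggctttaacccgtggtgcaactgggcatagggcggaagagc
The stretch of Mki67 holds a pair of TTTGAA matches, and that of Top2a holds 3 CCAAT matches in both orientations and a TTTGAA match on the other strand. Bub3, which was level across the groups, has 2 CCAAT matches with a TTTGAA match of the other strand between them.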

How the data were processed

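Per the labels' protocols, whole-kidney RNA was extracted with RNAiso Plus and made into libraries with a CORALL RNA-seq V2 kit. The tools fastp, STAR and Salmon and the GRCm39 build are named by the submitters' processing notes, while the sources used here give no versions, annotation or strand settings. Each deposited file holds a whole number per gene symbol, read as an estimated count (expected count) that the authors rounded. All 28 values of 1000000 or more are multiples of 10, so the largest carry further rounding. Library totals were 22200909 to 38253100 counts, and replicates of a group differed by a chi-square of at least 6.76 per gene, so none was counted as a duplicate. Whether molecular identifiers were used is not given, so precision may be worse than counting error alone would give.

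Genes were filtered by filterByExpr at a minimum count of 10, scaled by TMM and fitted with robust quasi-likelihood models in edgeR 4.0.16 (R 4.3.3), with 3 group means over all 12 libraries. Tests were two-sided with Benjamini-Hochberg adjustment over 17841 genes and a call at an adjusted p below 0.05. Log2 means used a prior count of 2. Alternatives were DESeq2 1.42.0, limma-voom (limma 3.58.1), other scalings, filters and thresholds, a replicate block, a slope on labelled adenine read at 2%, and leaving out each library. The fit was tested on simulated data. Groups came from the sample titles. The members, the gene lists and the rule for named genes were chosen with earlier results of these data known. The rule gives every library's value for 18 members and for any member called in CKD+COL against CKD, and the 2 genes of smallest p from each related list and comparison, with Cdkn1a; 1 gene that the rule gives is not reported here. Kif20b, Iqgap3, Mad1l1, Ube2s and Cdkn1a are shown by library as examples, chosen after their values were seen, as were the other genes named within counts of 5 or fewer, and Zwint and Spc25.

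RefSeq lists another protein-coding gene over 8 members (Ccna2, Foxm1, Aurka, Cdc20, Nusap1, Prc1, Anln and Ncapg), whose counts are uncertain to that extent. Of the listed marker symbols only Trac was not used here.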

Additional observations from a re-analysis of the deposited data

Results flagged for a closer look

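Among 123 sets of 4 libraries (41 members in 3 groups), 2 held a library far from the other 3, where chance alone gives about 1 in 20. Cenpa, the centromere histone, had 3.91 CPM in CKD replicate 4, below the other 3 CKD libraries at 5.73 to 5.84 CPM. Incenp of the passenger complex had 19.6 CPM in CKD replicate 2, above the other 3 at 16.2 to 16.7 CPM.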

How the results depend on the processing

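The numbers of members called higher against control stayed within 1.5 times under every alternative run. Members called higher in CKD+COL against CKD numbered 7 by edgeR, 11 with upper-quartile scaling, 4 with RLE scaling, 0 at a 1.5-fold threshold (glmTreat), and 2 to 9 when 1 library was left out. Members called lower in CKD against control numbered 2, but 0 when scaled by library totals only, 1 without the low-count filter, 1 at the 1.5-fold threshold and 1 to 2 when 1 library was left out. Members called lower in CKD+COL against control numbered 2, but 0 by library totals only and 1 at the 1.5-fold threshold.

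With the replicate number as a block, 4 members were called higher in CKD+COL against CKD (Ube2c, Pttg1, Spc24 and Birc5). No pairing by number was seen: same-number correlations were -0.119 to 0.189 between CKD+COL and CKD, -0.217 to 0.0733 between CKD+COL and control, and -0.279 to -0.0027 between CKD and control. Not every library correlated best with its own number. With 4 libraries per group such correlations cannot exclude a pairing. A slope on labelled adenine, read at 2%, the label of CKD+COL replicate 1 alone in its group, called 5 higher, among them neither Pttg1 nor Spc24.

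Directions turned as follows. By library totals only, Pttg1 and Spc25 had log2 values of 0.17 and 0.43 in CKD against control and 0.60 and 0.056 in CKD+COL against control. In CKD+COL against CKD, Bub3 was at 0.021 and Espl1 at 0.019 with upper-quartile scaling, at 0.054 and 0.035 with the adenine slope, and Nusap1 at -0.043 by limma-voom. In CKD+COL against control Bub3 was at -0.0097 by DESeq2 and -0.0090 with RLE scaling. Leaving out 1 library gave ranges across 0 in CKD+COL against CKD for Ccnb1 (-0.044 to 0.56), Aurka (-0.080 to 0.39), Mad2l1 (-0.14 to 0.22), Knl1 (-0.22 to 0.52), Aurkb (-0.19 to 0.32), Sgo1 (-0.034 to 0.53), Sgo2a (-0.054 to 0.43), Nusap1 (-0.22 to 0.23), Hmmr (-0.15 to 0.42), Ect2 (-0.15 to 0.52), Espl1 (-0.21 to 0.093) and Bub3 (-0.10 to 0.013). The same held in CKD+COL against control for Bub3 (-0.051 to 0.065) and Ect2 (-0.026 to 0.65). The cause was not tested, beyond the scaling itself.

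Over all genes, CKD+COL against CKD gave 1212 higher and 1470 lower calls, and 1764 and 1185 with upper-quartile scaling. RLE scaling gave 1002 and 1669, the 1.5-fold threshold 12 and 28, the block 694 and 1062, and the adenine slope 392 and 616. Leaving out CKD+COL replicate 1 gave the most calls, 2882 higher and 3519 lower, and leaving out CKD replicate 3 the fewest of the fits without 1 library, 419 and 573. CKD against control gave 6076 and 5952, 13197 and 1850 by library totals only, and 3582 and 3320 at the 1.5-fold threshold. CKD+COL against control gave 6612 and 5964, 8134 and 4849 with upper-quartile scaling, and 13762 and 1953 by library totals only. Upper-quartile scaling put the median of all genes at 0.17 in CKD against control and 0.30 in CKD+COL against control. Depth limits 8 members with under 10 counts in some control library (Cdc25c, Bub1, Ttk, Espl1, Knl1, Sgo1, Sgo2a and Ncapg).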
